A study of Mus musculus with 126 samples.

Results

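Mice lacking Bmal1 in the gut were compared with wild type mice for the mean level of every gene in the colon, averaged over the day. The comparison used all 18 RNA-seq libraries of each genotype, 36 of the 126 in the series, and 11377 genes. Both genotypes ate normal chow freely. The series design describes the knock out as gut-specific and its mice as 8 to 12 weeks old. The labels name no Cre driver or floxed allele, no age for wild type, and no strain or sex for either genotype. Colons were collected at 6 times of day, counted in zeitgeber hours from lights on (ZT), with 3 libraries at each time. That they came from separate animals is not stated, so the p-values measure only the spread between libraries. A gut knock out of the mineralocorticoid receptor (MR) on the same chow, also 18 libraries and 8 to 12 weeks old, is set beside some results. Groups fed low- or high-salt food by night or by day, from mice aged 8 weeks, are set beside a few genes.

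BMAL1, encoded by Arntl, pairs with CLOCK and binds E-box sequences near its target genes. Among those targets are Per and Cry genes, whose products inhibit the pair, Nr1d1 and Nr1d2, whose products repress Arntl, and many genes of metabolism and transport. The colon epithelium absorbs water, salt and bacterial fermentation products, makes mucus and antimicrobial proteins, detoxifies food compounds, and is renewed from crypt stem cells.

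Levels are FPKM (fragments mapped to a gene, relative to its transcript length and to all fragments mapped), divided by a scale factor per library that sets the typical gene equal across libraries. A difference is knock out minus wild type on the log2(FPKM + 0.5) scale, averaged over the 6 times, with its standard error, so it understates changes of genes below about 1 FPKM. The genotypes were deposited as separate tables, so each difference crosses 2 tables. Epithelial markers dominated the libraries. All 9 goblet cell markers and 8 of 9 colonocyte markers passed the filter on low values, while none of 10 enteric neuron, 6 glial and 9 endothelial markers did. Of 10 smooth muscle markers 3 passed, of 8 fibroblast markers 1 and of 4 markers of interstitial cells of Cajal 2. Some blood and immune cell markers also passed, 5 of 7 red blood cell, 5 of 8 T cell, 4 of 9 macrophage and 3 of 6 mast cell. The filter asks for a mean of at least 1 FPKM in any 1 of the 7 conditions, so a marker can pass through a single group. The 6 mast cell markers summed to a median of 1.07 FPKM in wild type and 6.13 in the knock out. The summed endothelial markers ran from 0.71 to 2.33 FPKM in wild type and from 0.62 to 1.52 in the knock out.

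The knock out libraries were of 2 kinds, which touches every result. In 13 of them the scale factor was between 0.297 and 0.78, and in the other 5 between 1.23 and 1.48. Of the wild type libraries 16 lay between 1.15 and 1.33, and 2 were lower, ZT8 replicate 3 at 0.822 and ZT16 replicate 1 at 0.889. The 13 low knock out libraries also had less signal from long transcripts. Their length score, the slope of a library's log2 deviations on log2 transcript length, was -0.236 to -0.098, against 0.00678 to 0.185 in the other 5 and 0.104 to 0.311 in the 16 wild type libraries. The 5 came from ZT0 (1), ZT4 (3) and ZT8 (1), and all knock out libraries of ZT12, ZT16 and ZT20 were of the low kind. At ZT0 and ZT8 both kinds of knock out library were present, 1 of the high kind and 2 of the low kind at each. At the other 4 times library kind and time of day cannot be told apart. The share of summed FPKM on 11 ribosomal RNA rows had a median of 2.04% in the 13 low knock out libraries (0.562 to 4.21%), 0.82% in the other 5 (0.187 to 1.22%) and 0.314% in the 16 wild type libraries of scale factor at least 1 (0.146 to 0.907%). The part of RNA quality or library preparation in the results was not tested. Genes described in full and most list medians are given over all libraries and beside that in the libraries of scale factor at least 1 at ZT0, ZT4 and ZT8, called the restricted set and chosen after seeing the data. Where a gene has 2 values joined by "and", the first, with its standard error, is over all libraries and the other is from the restricted set. Fewer libraries and times enter the restricted set, with 5 knock out libraries. Not passing there therefore does not show that a gene is unchanged.

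**Figure D1:**
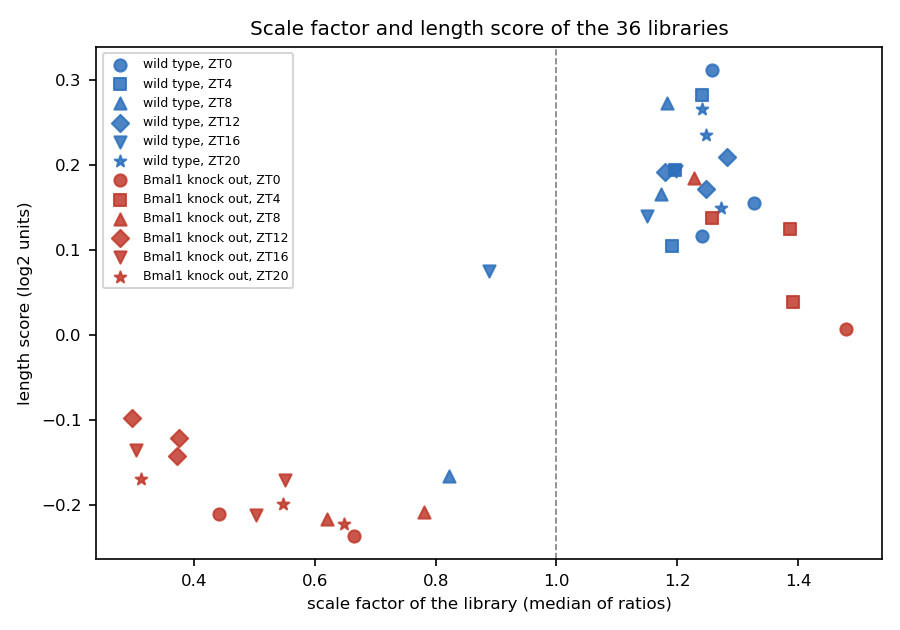
Scale factor (horizontal axis) and length score (vertical axis, log2 units per doubling of transcript length) of the 18 wild type and 18 Bmal1 knock out libraries, with a dashed line at a scale factor of 1. The 13 knock out libraries left of the line have length scores of -0.236 to -0.098. The 5 right of it, at 0.00678 to 0.185, only partly overlap the 16 wild type libraries there, at 0.104 to 0.311.

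Most genes differed in mean level. Of the 11377 genes 3534 (31.1%) were called higher in the knock out and 5601 (49.2%) lower by limma at a Benjamini-Hochberg adjusted p of at most 0.05. The median difference of all tested genes was -0.13. A strong call, with a difference of at least 1 and 1 sign at all 6 times, was made for 349 genes higher (3.07%) and 452 lower (3.97%). In 54 genes (0.475%) every knock out library lay above every wild type library, and in 91 (0.8%) below. Without the wild type library ZT8 replicate 3 these counts were 96 and 147, and without ZT8 they were 157 and 263. In the restricted set, 807 genes were called higher and 1213 lower, and 210 of the 801 strong calls remained strong with their sign. With the length score as a covariate 2104 were called higher and 1969 lower, and 169 strong calls remained. On the FPKM as deposited 389 were called higher and 9994 lower, with a median of -0.89, and 491 strong calls remained. The share of calls that were higher was thus 38.7% as reported here, 3.75% as deposited, 51.7% with the length score and 47.6% after quantile normalization. Counts of list members called are to be read against the 31.1% higher and 49.2% lower of all tested genes. A fall or rise is relative to the typical gene of these libraries.

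The difference followed transcript length. The genes were cut into 5 equal classes of transcript length. In the class of the shortest transcripts, up to 1796 bases, the median difference was 0.32, and in that of the longest, from 5057 bases, it was -0.5. The 3 classes between had medians of 0.02, -0.14 and -0.28. At ZT4, where all knock out libraries had scale factors above 1, the shortest and longest classes were at 0.09 and -0.15. At ZT20 they were at 0.48 and -0.78. In the restricted set they were at 0.12 and -0.19, so a trend with length remained there. With the length score in the fit all 5 medians were between -0.01 and 0.03. The length score is itself a slope on length over these same genes, so flat medians follow from how it is made. The score also differed between the genotypes, so that fit may take out part of a genotype difference too. Since the differences followed length, gene lists of long or short transcripts are given with their median transcript length. The part of length in their differences was not tested.

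**Figure D2:**
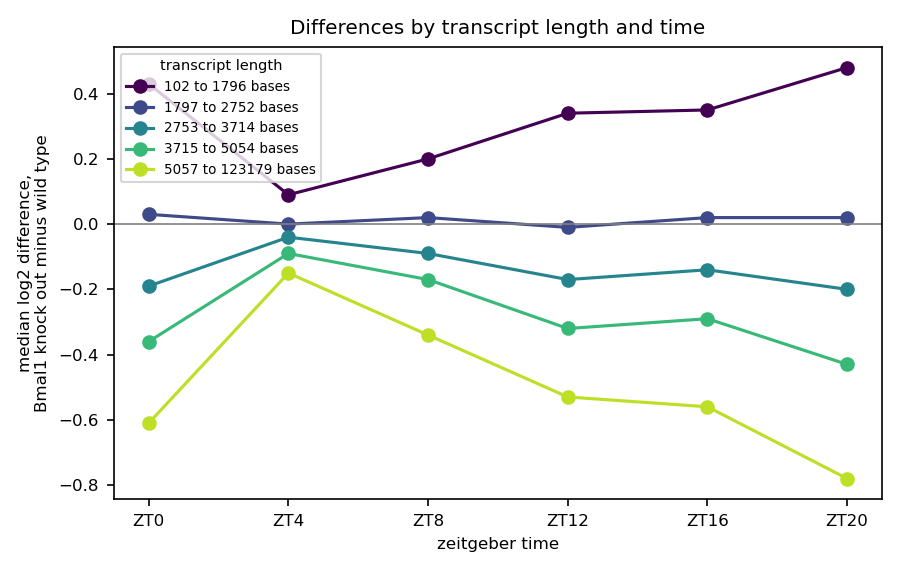
Median knock out minus wild type difference (log2, vertical axis) at each zeitgeber time (horizontal axis), 1 line for each of 5 classes of transcript length. At every time the medians fall from the shortest to the longest class, least at ZT4 (0.09 to -0.15) and most at ZT20 (0.48 to -0.78).

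Arntl, the targeted gene, ranged from 2.25 to 19.2 FPKM (median 8.27) in wild type and from 2.87 to 6.28 FPKM (median 4.02) in the knock out. Its level differed by -0.68 ± 0.09 (adjusted p = 1.4e-08) on average, or -0.78 (adjusted p = 0.00253) in the restricted set, with values of -1.89 at ZT0, -1.16 at ZT4, 0.28 at ZT8, 0.33 at ZT12, 0.01 at ZT16 and -1.67 at ZT20. The lower mean came from ZT0, ZT4 and ZT20, and from ZT8 to ZT16 the knock out was not lower. The labels do not say which exons are deleted, so the gene level need not report the deletion. Nr1d1, the heme-binding repressor REV-ERBα, ranged from 0.793 to 54.7 FPKM (median 16.9) in wild type and from 0.368 to 2.08 FPKM (median 0.726) in the knock out. The groups overlapped, with 5 of 18 knock out libraries inside the wild type range, and the log2 difference was -3.12 ± 0.12 (adjusted p = 4.39e-23), or -3.78 (adjusted p = 7.05e-13) in the restricted set. Nr1d2, its close relative REV-ERBβ, ranged from 1.63 to 21.4 FPKM (median 8.23) in wild type and from 0.272 to 1.25 FPKM (median 0.551) in the knock out. All 18 knock out libraries lay below every wild type library, giving a log2 difference of -2.79 ± 0.10 (adjusted p = 2.43e-23), or -2.47 (adjusted p = 1.91e-11) in the restricted set. Both are direct BMAL1 targets, and both fell at each of the 6 times.

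In 6 genes all 18 knock out libraries lay outside the range of all 108 libraries of the other 6 conditions, and all 6 are on chromosome 7, which also holds Arntl. These were picked after their values were seen. Trim12a, from a cluster of tripartite motif genes of innate antiviral defence, ranged from 5.56 to 14.8 FPKM (median 7.57) in wild type and from 0 to 0.147 FPKM (median 0.0363) in the knock out. The genotypes did not overlap, with the knock out below wild type, and the mean log2 difference was -3.9 ± 0.11 (adjusted p = 1.76e-28), or -3.98 (adjusted p = 3.31e-13) in the restricted set. Trim30d, in the same cluster, ranged from 3.86 to 7.86 FPKM (median 5.64) in wild type and from 0.197 to 1.81 FPKM (median 0.653) in the knock out. Even the highest knock out library was below all wild type libraries, and the log2 difference was -2.31 ± 0.11 (adjusted p = 1.27e-19), or -1.9 (adjusted p = 5.61e-11) in the restricted set. The predicted gene Gm15133, between them, ranged from 0.581 to 1.38 FPKM in wild type and was listed at 0 in all 18 knock out libraries. In the other 108 libraries Trim12a ranged from 5.44 to 42.3 FPKM and Gm15133 from 0.218 to 2.93. All 3 lie at mm10 chr7:104299894-104507849, with starts within 0.17 Mb. Myo7a, an unconventional myosin of microvilli and hair cells, ranged from 1.12 to 2.34 FPKM (median 1.59) in wild type and from 0.00794 to 0.484 FPKM (median 0.0432) in the knock out. Every knock out library was below the whole wild type range, giving a log2 difference of -1.88 ± 0.07 (adjusted p = 7.71e-23), or -1.87 (adjusted p = 4.92e-11) in the restricted set.

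Hddc3 and Fah were the reverse case. Hddc3, a nucleotide hydrolase related to bacterial stress-response enzymes, ranged from 2.01 to 4.55 FPKM (median 2.56) in wild type and from 27.1 to 75.5 FPKM (median 57.1) in the knock out. All 18 knock out libraries lay above every wild type library, and the log2 difference was 4.05 ± 0.09 (adjusted p = 5.61e-31), or 3.51 (adjusted p = 4.28e-18) in the restricted set. Fah, the last enzyme of tyrosine breakdown, ranged from 2.4 to 4.55 FPKM (median 3.06) in wild type and from 9.22 to 19.4 FPKM (median 12.3) in the knock out. The genotypes did not overlap, with the knock out above wild type, giving a log2 difference of 1.82 ± 0.10 (adjusted p = 1.27e-17), or 1.41 (adjusted p = 1.57e-05) in the restricted set. In the other 108 libraries Hddc3 did not exceed 4.75 FPKM and Fah did not exceed 4.95. Against MR knock out the differences were 3.96 for Hddc3, 2.02 for Fah, -4.93 for Trim12a, -3.1 for Trim30d and -1.53 for Myo7a. The MR comparison shares the knock out libraries with the wild type one. Measured from the start of Arntl, the 6 genes lie at -8.9 Mb (Trim12a and Gm15133), -8.7 Mb (Trim30d), -15.2 Mb (Myo7a), -28.6 Mb (Fah) and -32.9 Mb (Hddc3).

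Strong calls among neighbouring genes were few around Hddc3 and Fah and more frequent around the other genes, against 3.07% higher and 3.97% lower of all tested genes. Within 0.5 Mb of Hddc3 17 other genes were tested, of which 1 was a strong call, and their median difference was -0.2. Within 0.5 Mb of Fah 3 were tested, with none strong and a median of 0.07. Around Trim12a 8 were tested, with 1 strong call higher and 3 lower, 2 of the latter being Gm15133 and Trim30d. Among them Trim34a differed by -1.15 ± 0.11 and Trim12c by 1.0 ± 0.08. Around Myo7a 9 were tested, with 1 strong call higher and 2 lower. Gm8979, a predicted gene at -7.1 Mb from Arntl, ranged from 8.3 to 124 FPKM (median 75.8) in wild type and from 0.807 to 15.4 FPKM (median 3.01) in the knock out. Of the 18 knock out libraries 3 lay inside the wild type range, so the groups overlapped, and the log2 difference was -4.0 ± 0.29 (adjusted p = 1.96e-14), or -3.36 (adjusted p = 2.05e-05) in the restricted set. Around Gm8979 15 rows were tested, with 2 strong calls higher and 2 lower. The 2 lower are both rows of 1 predicted gene, Gm4070, at -2.4 and -2.34. Gvin1 and Gm8989 also have 2 rows each, so these rows are fewer genes. Of all strong calls higher with a known position 13.3% were on chromosome 7, against 6.43% of strong calls lower and 7.74% of all tested genes. Close paralogs such as the Trim genes can exchange reads in FPKM, so how the signal divides among them is uncertain. The labels give no strain for either genotype, so the deletion and a difference in strain background cannot be told apart for these genes, and neither was tested.

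**Figure D3:**
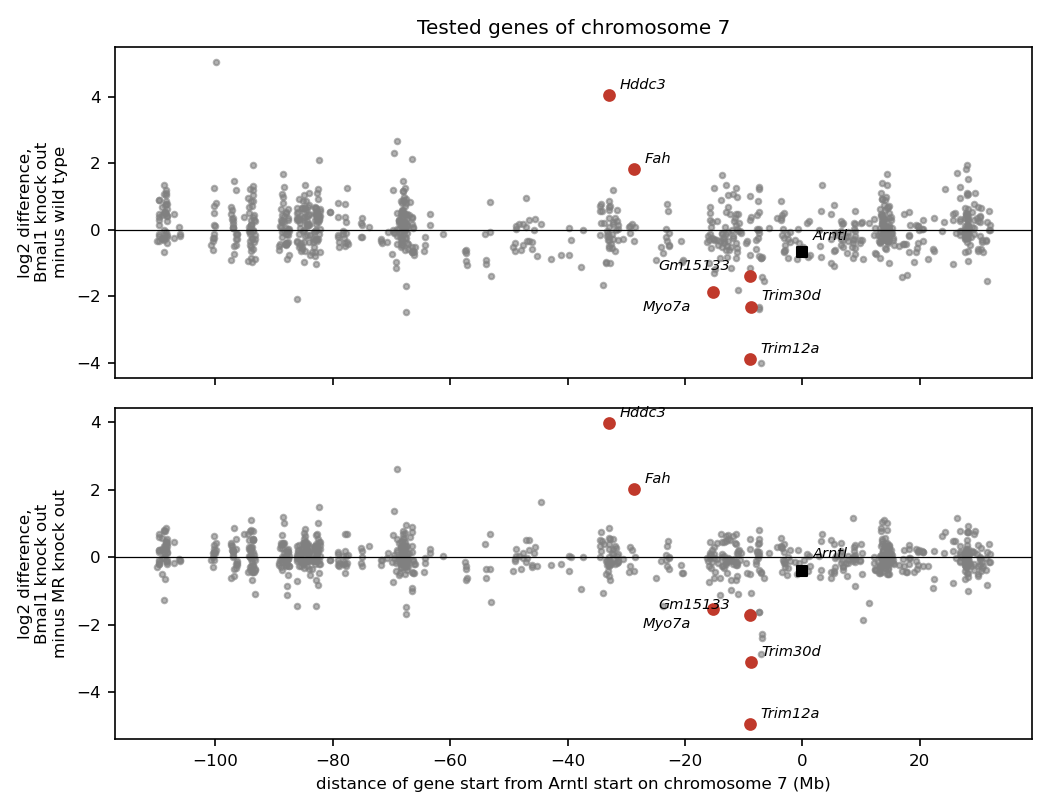
Difference of tested chromosome 7 genes (log2, vertical axis) against distance from the start of Arntl (Mb, horizontal axis), for knock out minus wild type and knock out minus MR knock out. The 6 labelled genes, from Trim12a at -3.90 to Hddc3 at 4.05, are marked in both panels, and all lie on 1 side of Arntl.

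Detoxifying enzymes and drug efflux pumps were lower over all libraries. Of 8 tested colonocyte markers 5 were also called lower and 1 higher, with a median of -0.75 against the median of all tested genes, 0.05 in the restricted set and -0.54 with the length score in the fit. Their summed level ran from 6141 to 10894 FPKM in wild type and from 4643 to 11165 in the knock out. In bulk tissue fewer cells of a type and less RNA per cell cannot be told apart, and the part of colonocyte markers in the falls of enzymes and transporters was not tested. Of 19 tested cytochrome P450 genes, 1 was called higher and 15 lower, with 8 strong falls, and in 5 every knock out library lay below every wild type library. Their median was -0.81 against the median of all tested genes, -0.26 in the restricted set and -0.57 with the length score in the fit. Cyp4b1, which oxidises fatty acids and foreign compounds, ranged from 3.55 to 22.5 FPKM (median 12.2) in wild type and from 0.121 to 1.55 FPKM (median 0.401) in the knock out. Even the highest knock out library was below all wild type libraries, and the log2 difference was -3.49 ± 0.23 (adjusted p = 1.51e-15), or -2.56 (adjusted p = 0.000298) in the restricted set. Cyp2f2, an enzyme of aromatic compound metabolism, ranged from 4.94 to 9.47 FPKM (median 7.4) in wild type and from 0.136 to 3.05 FPKM (median 1.51) in the knock out. Every knock out library was below the whole wild type range, giving a log2 difference of -2.09 ± 0.17 (adjusted p = 2.25e-13), or -1.88 (adjusted p = 8.49e-05) in the restricted set. Cyp2c68, of the Cyp2c family, ranged from 23.4 to 59.2 FPKM (median 39) in wild type and from 6.97 to 18.6 FPKM (median 10.4) in the knock out. All 18 knock out libraries lay below every wild type library, and the mean log2 difference was -1.74 ± 0.16 (adjusted p = 1.28e-11), or -1.66 (adjusted p = 0.0012) in the restricted set. These 3 kept their falls in the restricted set, while Cyp2w1 did not pass there (-0.78, adjusted p = 0.0616). Against MR knock out Cyp4b1 differed by -2.5 (adjusted p = 1.16e-11).

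Of 24 tested carboxylesterase and efflux genes, 1 was called higher and 22 lower, with 11 strong falls. Their median was -0.76 against the median of all tested genes, -0.36 in the restricted set and -0.56 with the length score in the fit. Ces1d, a carboxylesterase and triglyceride hydrolase, ranged from 14.6 to 75.5 FPKM (median 44.9) in wild type and from 3.51 to 15.1 FPKM (median 5.85) in the knock out. Knock out libraries were mostly lower, though 1 of 18 fell within the wild type range, and the log2 difference was -2.59 ± 0.15 (adjusted p = 2.18e-17), or -1.53 (adjusted p = 0.000221) in the restricted set. Abcb1a, the efflux pump P-glycoprotein, ranged from 50.6 to 152 FPKM (median 99.4) in wild type and from 10.6 to 74.8 FPKM (median 14.9) in the knock out. There was overlap, since 4 of 18 knock out libraries lay within the wild type range, giving a log2 difference of -2.12 ± 0.15 (adjusted p = 2.11e-14), or -0.91 (adjusted p = 0.00289) in the restricted set. Ces1g differed by -1.89 ± 0.26 and -0.67 over all libraries and in the restricted set, the latter not passing (adjusted p = 0.343). Among conjugating enzymes 6 of 27 tested were called higher and 17 lower. Their median was -0.22 against the median of all tested genes, -0.03 in the restricted set and -0.25 with the length score in the fit. Ugt1a1, which conjugates bilirubin, had differences of -2.1 ± 0.21 and -1.07, both passing. Ugt1a7c had -1.43 ± 0.18 and -0.17, the latter not passing (adjusted p = 0.654). The Ugt1a genes share their last exons, so the division of reads among them is uncertain.

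Transporters of peptides and amino acids were lower as well. Of 17 tested members, 0 were called higher and 12 lower, with 6 strong falls. Slc15a1, the proton-coupled peptide transporter PEPT1, ranged from 7.18 to 44.3 FPKM (median 15.5) in wild type and from 0.92 to 6.28 FPKM (median 2.28) in the knock out. The genotypes did not overlap, with the knock out below wild type, and the log2 difference was -2.58 ± 0.16 (adjusted p = 1.82e-16), or -2.26 (adjusted p = 3.64e-05) in the restricted set. Slc36a1, a proton-coupled amino acid transporter, ranged from 8.6 to 34.4 FPKM (median 14.3) in wild type and from 2.21 to 8.46 FPKM (median 3.91) in the knock out. Even the highest knock out library was below all wild type libraries, giving a log2 difference of -1.82 ± 0.12 (adjusted p = 2.92e-15), or -1.09 (adjusted p = 0.00138) in the restricted set. Slc6a14, a broad sodium- and chloride-dependent amino acid carrier, ranged from 80.6 to 201 FPKM (median 157) in wild type and from 20.3 to 118 FPKM (median 31.9) in the knock out. Values of the genotypes overlapped, 2 of 18 knock out libraries being inside the wild type range, and the mean log2 difference was -1.9 ± 0.16 (adjusted p = 1.53e-12), or -0.99 (adjusted p = 0.0104) in the restricted set. All 3 passed in both sets of libraries, and Slc15a1 was at -1.81 against MR knock out (adjusted p = 3.28e-12). The list median was -0.42 against the median of all tested genes, -0.20 in the restricted set and -0.13 with the length score in the fit.

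Transport of water, potassium and anions gave 19 members lower and 2 higher of 23 tested, with 8 strong falls. The median was -0.70 against the median of all tested genes, -0.24 in the restricted set and -0.30 with the length score in the fit. Fxyd4 and Slc26a3, described next, are related genes outside this list. Fxyd4, a regulator of the sodium pump that mineralocorticoids induce, ranged from 31.7 to 164 FPKM (median 58.1) in wild type and from 1.76 to 59 FPKM (median 20.2) in the knock out. Its ranges overlapped, as 2 of 18 knock out libraries were within that of wild type, and the log2 difference was -2.4 ± 0.30 (adjusted p = 5.14e-09), or -3.78 (adjusted p = 9.98e-07) in the restricted set. Fxyd4 was higher than in MR knock out, by 2.29 (adjusted p = 4.51e-08). Slc26a3, the chloride-bicarbonate exchanger of the colonocyte surface, ranged from 118 to 386 FPKM (median 202) in wild type and from 24.9 to 159 FPKM (median 43.8) in the knock out. The groups overlapped, with 2 of 18 knock out libraries inside the wild type range, giving a log2 difference of -1.99 ± 0.13 (adjusted p = 1.9e-15), or -0.89 (adjusted p = 0.0035) in the restricted set. The bicarbonate carriers Slc4a4 and Slc4a7 had differences of -1.76 and -1.38, but -0.69 and -0.25 in the restricted set, where neither passed (adjusted p = 0.101 and 0.615). The sulfate carrier Slc26a2 and the chloride channel Ano1 likewise had -1.96 ± 0.19 and -0.76 and -1.54 ± 0.16 and -0.87, with adjusted p of 0.0588 and 0.0534 in the restricted set. Ano1 and Kit, the receptor of stem cell factor, also mark interstitial cells of Cajal, and were the 2 of 4 such markers tested. Kit differed by -1.48 ± 0.21 and -0.28, the latter not passing (adjusted p = 0.557), and the summed level of the 4 ran from 21.1 to 43.2 FPKM in wild type and from 5.97 to 28.8 in the knock out. The part of these cells in the difference of Ano1 was not tested.

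Metal handling held falls of carriers and a rise of Mt1. Mt1, a zinc- and copper-binding metallothionein, ranged from 96.3 to 466 FPKM (median 226) in wild type and from 438 to 1522 FPKM (median 1110.1) in the knock out. Of the 18 knock out libraries 1 lay inside the wild type range, so the groups overlapped, and the log2 difference was 2.18 ± 0.12 (adjusted p = 2.98e-17), or 1.5 (adjusted p = 8.05e-05) in the restricted set. Its difference was positive at every time, from 1.3 at ZT8 to 3.12 at ZT20, and MR knock out had a median of 749.7 FPKM. Slc40a1, ferroportin, the iron exporter of the basal membrane, ranged from 23.6 to 55.8 FPKM (median 37.6) in wild type and from 8.72 to 21.9 FPKM (median 11.7) in the knock out. Every knock out library was below the whole wild type range, giving a log2 difference of -1.55 ± 0.13 (adjusted p = 3.57e-13), or -1.3 (adjusted p = 0.000756) in the restricted set. Of 19 zinc and copper genes 14 were called lower and 3 higher, and of 23 iron and heme genes 13 were lower and 6 higher, the latter near the shares of all tested genes. Over all libraries, in the restricted set and with the length score their medians against all genes were -0.42, -0.21 and -0.22 for zinc and copper and -0.19, -0.02 and -0.19 for iron. The calcium entry channel Trpv6 differed by -1.03 ± 0.20 and -1.43, both passing. The calcium sensor Stim1 differed by -1.81 ± 0.18 and -0.42, the latter not passing (adjusted p = 0.258).

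Of 14 tested genes of short-chain fatty acid uptake and ketone metabolism 4 were called higher and 4 lower, with a median of 0.13 against the median of all tested genes, 0.15 in the restricted set and 0.00 with the length score in the fit. Ffar2, a receptor for short-chain fatty acids, ranged from 2.54 to 10 FPKM (median 5.67) in wild type and from 6.64 to 47.7 FPKM (median 28.5) in the knock out. Knock out libraries were mostly higher, though 4 of 18 fell within the wild type range, and the log2 difference was 2.09 ± 0.13 (adjusted p = 8.43e-16), or 0.65 (adjusted p = 0.0151) in the restricted set. Slc5a8, a sodium-coupled carrier of short-chain fatty acids, ranged from 39.3 to 73.1 FPKM (median 58.8) in wild type and from 12.6 to 54.1 FPKM (median 19.7) in the knock out. There was overlap, since 2 of 18 knock out libraries lay within the wild type range, giving a log2 difference of -1.36 ± 0.11 (adjusted p = 4.26e-13), or -0.68 (adjusted p = 0.0105) in the restricted set. The receptor rose and the carrier fell in both sets of libraries. Both changes were smaller in the restricted set. Bile acid genes were few. Slc51b, a subunit of the basal bile acid exporter, rose by 1.06 ± 0.12 and 0.72 and the prostaglandin carrier Slco2a1 differed by -1.49 ± 0.08 and -0.99, all passing.

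**Figure D4:**
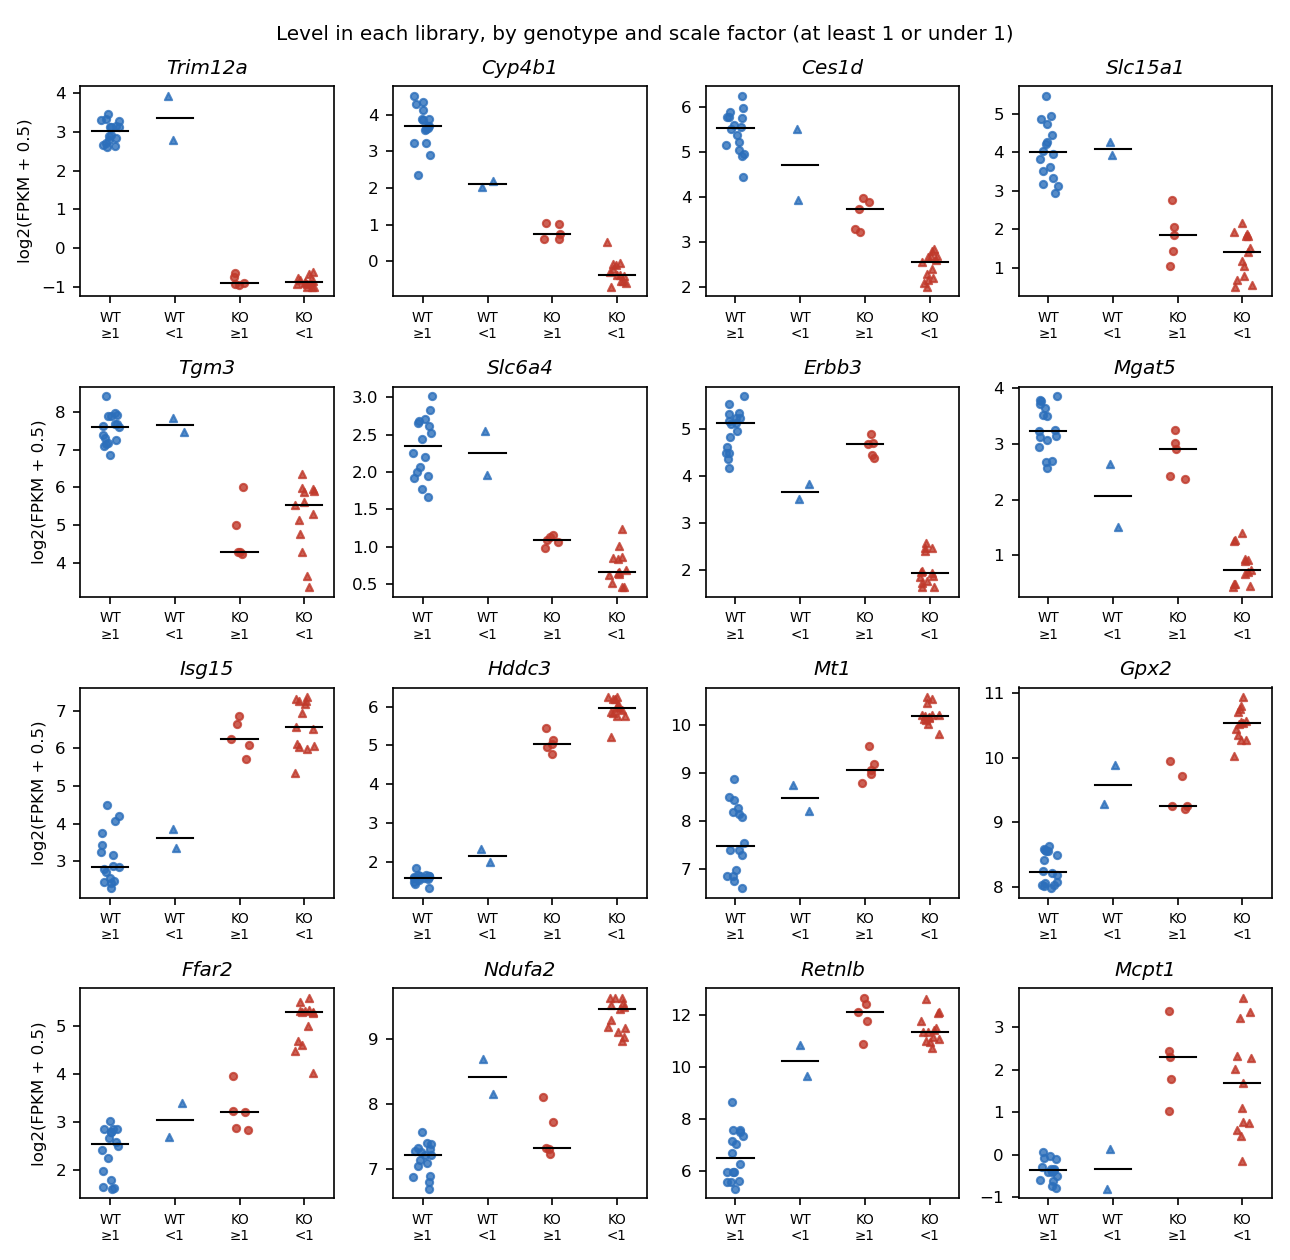
Level of 16 genes in each library (log2 of FPKM + 0.5, vertical axis), with wild type and Bmal1 knock out libraries each split at a scale factor of 1 and a bar at each median. Trim12a, Slc15a1 and Tgm3 lie apart from wild type in both knock out columns, while the 5 knock out libraries of scale factor at least 1 lie near wild type for Erbb3 (median 25 FPKM against 34.2).

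The largest rises included Pla2g4c and genes of secreted defence proteins. Pla2g4c, a cytosolic phospholipase A2, ranged from 0.271 to 37.4 FPKM (median 0.724) in wild type and from 22.3 to 207 FPKM (median 75.2) in the knock out. Values of the genotypes overlapped, 2 of 18 knock out libraries being inside the wild type range, and the log2 difference was 5.04 ± 0.57 (adjusted p = 1.06e-09), or 6.1 (adjusted p = 0.000543) in the restricted set. Retnlb, a goblet cell protein that binds bacteria, ranged from 39.3 to 1826 FPKM (median 117) in wild type and from 1689 to 6472 FPKM (median 2819.8) in the knock out. Its ranges overlapped, as 1 of 18 knock out libraries was within that of wild type, giving a log2 difference of 4.59 ± 0.44 (adjusted p = 2.6e-11), or 5.23 (adjusted p = 0.000195) in the restricted set. Ang4, an antimicrobial ribonuclease, ranged from 5.49 to 1144 FPKM (median 41.3) in wild type and from 736 to 4094 FPKM (median 1285) in the knock out. The groups overlapped, with 6 of 18 knock out libraries inside the wild type range, and the mean log2 difference was 4.9 ± 0.67 (adjusted p = 4.19e-08), or 5.93 (adjusted p = 0.00473) in the restricted set. For all 3 genes the wild type libraries inside the knock out range were among the 2 with scale factors under 1. Their medians were 33.9, 1315 and 806 FPKM for these 3 genes, against 0.535, 90.1 and 29.4 in the other 16. Without them the differences were 5.5, 4.96 and 5.35. Itln1, a lectin for microbial sugars, had differences of 4.65 ± 0.50 and 4.85, and the pancreatic lipase relative Pnliprp2 3.59 ± 0.45 and 4.96.

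MR knock out medians were 105, 1862 and 2005 FPKM for Pla2g4c, Retnlb and Ang4. The Bmal1 minus MR knock out differences were 0.23 for Pla2g4c, 1.29 for Retnlb, 0.34 for Ang4 and 0.66 for Itln1. Reg3b, a secreted antibacterial lectin, ranged from 189 to 1161 FPKM (median 481) in wild type and from 16.7 to 834 FPKM (median 49.8) in the knock out. Of the 18 knock out libraries 2 lay inside the wild type range, so the groups overlapped, and the log2 difference was -2.95 ± 0.40 (adjusted p = 3.4e-08), or -3.78 (adjusted p = 0.00132) in the restricted set. So the antimicrobial genes did not all move one way. Isg15, a ubiquitin-like interferon-induced protein and among the 12 largest rises, ranged from 4.38 to 22.2 FPKM (median 7.6) in wild type and from 40.5 to 164 FPKM (median 92.6) in the knock out. All 18 knock out libraries lay above every wild type library, giving a log2 difference of 3.36 ± 0.25 (adjusted p = 4.79e-14), or 3.19 (adjusted p = 0.000233) in the restricted set. Against MR knock out Isg15 differed by 0.14, Ifi27l2a by -0.64 and Apol9b by 0.09, after rises against wild type of 3.36, 4.25 and 3.16 (3.19, 4.38 and 2.89 in the restricted set). The antigen-presentation genes Cd74 and H2-Aa rose by 3.18 ± 0.39 and 2.5 and by 3.22 ± 0.41 and 2.62, and were -1.64 and -1.85 against MR knock out.

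Of 9 goblet cell markers 5 were called higher and 2 lower, with a median of 0.43 against the median of all tested genes, 0.43 in the restricted set and 0.12 with the length score in the fit, but -0.34 after quantile normalization. Several enzymes that build mucin sugars fell. Spink4, a goblet cell protease inhibitor, ranged from 1180 to 10868 FPKM (median 1813) in wild type and from 4631 to 19966 FPKM (median 11817) in the knock out. Knock out libraries were mostly higher, though 8 of 18 fell within the wild type range, and the log2 difference was 2.53 ± 0.25 (adjusted p = 4.19e-11), or 1.92 (adjusted p = 0.00351) in the restricted set. Clca1, a mucus-processing protease, had differences of 1.48 ± 0.22 and 2.29. Of 29 tested mucus and O-glycosylation genes, 6 were called higher and 19 lower, with a median of -0.31 against the median of all tested genes, -0.01 in the restricted set and 0.00 with the length score in the fit. B3gnt7, which extends sulfated glycan chains, ranged from 94.1 to 221 FPKM (median 138) in wild type and from 28.6 to 88.7 FPKM (median 49.8) in the knock out. The genotypes did not overlap, with the knock out below wild type, giving a log2 difference of -1.56 ± 0.15 (adjusted p = 2.19e-11), or -1.69 (adjusted p = 0.000442) in the restricted set. Gcnt1, which starts core branches on mucin-type glycans, ranged from 2.66 to 7.89 FPKM (median 4.53) in wild type and from 0.506 to 2.82 FPKM (median 1.32) in the knock out. There was overlap, since 1 of 18 knock out libraries lay within the wild type range, and the mean log2 difference was -1.41 ± 0.12 (adjusted p = 2.48e-12), or -1.77 (adjusted p = 2.66e-05) in the restricted set. Of 28 other glycan-processing genes 18 were lower and 6 higher, with a median of -0.23 against all tested genes, -0.05 in the restricted set and -0.15 with the length score. The N-glycan branching enzyme Mgat4a differed by -1.72 ± 0.12 and -1.09, both passing. Mgat5, which adds another branch, differed by -1.77 ± 0.23 and -0.44, the latter not passing (adjusted p = 0.463).

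Among barrier genes Tgm3 fell in both sets of libraries. Tgm3, a protein cross-linking transglutaminase, ranged from 115 to 340.5 FPKM (median 195) in wild type and from 9.74 to 81.7 FPKM (median 36.9) in the knock out. Even the highest knock out library was below all wild type libraries, and the log2 difference was -2.48 ± 0.25 (adjusted p = 6.75e-11), or -2.98 (adjusted p = 4.21e-05) in the restricted set. The tight junction protein Ocln differed by -1.52 ± 0.17 and -0.47 and the claudin Cldn2 by -1.08 ± 0.13 and -0.34, and neither passed in the restricted set (adjusted p = 0.161 and 0.289). Of 24 tight junction genes 18 were lower, of 26 junction and keratin genes 17 and of 26 brush border genes 17. Their medians were -0.33, -0.29 and -0.33 against all tested genes, and -0.12, 0.04 and -0.10 in the restricted set.

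Lipid genes did not move together. Of 18 tested fatty acid synthesis genes, 2 were called higher and 13 lower, with a median of -0.44 against the median of all tested genes, 0.13 in the restricted set and -0.09 with the length score in the fit. Me1, malic enzyme, which supplies NADPH for that synthesis, ranged from 3.02 to 6.22 FPKM (median 4.1) in wild type and from 4.79 to 27.5 FPKM (median 11.2) in the knock out. Values of the genotypes overlapped, 2 of 18 knock out libraries being inside the wild type range, and the log2 difference was 1.4 ± 0.16 (adjusted p = 1.55e-09), or 1.66 (adjusted p = 0.000371) in the restricted set. The desaturase Fads2 differed by -1.3 ± 0.16 and -0.33 and the mitochondrial fatty acid importer Cpt1a by -1.37 ± 0.14 and -0.44, neither passing in the restricted set (adjusted p = 0.443 and 0.174). Of 25 oxidation and peroxisome genes 16 were lower and 3 higher, with a median of -0.12 against all tested genes, -0.01 in the restricted set and -0.16 with the length score. Cholesterol synthesis and uptake had 7 higher and 7 lower of 21, with medians of 0.10, 0.42 and 0.30 over all libraries, in the restricted set and with the length score. The sterol exporter Abcg5 fell by 1.13 ± 0.15 and 1.28, and the fatty acid binding proteins Fabp1 and Fabp2 had 1.02 ± 0.24 and 1.31 and 1.04 ± 0.15 and 0.80. Of these values only the second of Fabp2 did not pass (adjusted p = 0.0688), and with the length score Fabp1 was at -0.02.

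Medians of carbohydrate and energy genes depended on the scaling. Of 19 sugar transport and glycolysis genes 7 were higher and 10 lower, with none strong and a median of 0.00 against all tested genes, 0.15 in the restricted set and -0.41 after quantile normalization. Pck1, which starts gluconeogenesis, differed by -1.4 ± 0.11 and -0.82, both passing, and the fructose carrier Slc2a5 by -0.88 ± 0.07 and -0.62. Citric acid cycle genes had 6 higher and 13 lower of 27, with medians of -0.01, 0.18 and -0.22 in the same order.

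Genes of the respiratory chain, proteasome and ribosome were mostly called higher over all libraries. Of 28 tested respiratory chain genes, 18 were called higher and 4 lower, and of 28 proteasome genes 26 were higher and 0 lower. Of 30 ribosomal protein genes 28 were higher and 0 lower. Their medians against all tested genes were 0.52, 0.49 and 0.66. In the restricted set they were 0.31, 0.34 and 0.13, and with the length score -0.05, 0.12 and -0.07. After quantile normalization they were -0.11, 0.30 and -0.02, so only the proteasome list stayed above all genes there. Their median transcripts were 1735, 1705 and 1114 bases. Ndufa2, a subunit of complex I, ranged from 103 to 411 FPKM (median 149.8) in wild type and from 150 to 791 FPKM (median 575) in the knock out. Its ranges overlapped, as 5 of 18 knock out libraries were within that of wild type, and the log2 difference was 1.56 ± 0.17 (adjusted p = 2.88e-10), or 0.50 (adjusted p = 0.184) in the restricted set. The 5 knock out libraries of scale factor at least 1 had a median of 159.7 FPKM and the other 13 a median of 701.

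Antioxidant genes of the NRF2 type rose and fell. Of 25 tested members, 15 were called higher and 7 lower, with a median of 0.44 against the median of all tested genes, 0.22 in the restricted set and -0.01 with the length score in the fit. Gpx2, the glutathione peroxidase of gut epithelium, ranged from 253 to 945 FPKM (median 323) in wild type and from 588 to 1959 FPKM (median 1346) in the knock out. The groups overlapped, with 4 of 18 knock out libraries inside the wild type range, and the log2 difference was 1.79 ± 0.15 (adjusted p = 7.66e-13), or 1.24 (adjusted p = 0.00113) in the restricted set. Prdx6, a peroxiredoxin with phospholipase activity, ranged from 573 to 1239 FPKM (median 809.7) in wild type and from 203 to 649.7 FPKM (median 382) in the knock out. Of the 18 knock out libraries 1 lay inside the wild type range, so the groups overlapped, giving a log2 difference of -1.15 ± 0.13 (adjusted p = 7.97e-10), or -1.41 (adjusted p = 0.00033) in the restricted set. Gclc, which starts glutathione synthesis, differed by -1.07 ± 0.14 and -0.29, the latter not passing (adjusted p = 0.365). Creatine kinase Ckb rose by 1.32 ± 0.12 and 1.19, both passing. Of 18 polyamine, arginine and creatine genes 10 were called higher and 3 lower. Their median was 0.41 against all tested genes, 0.17 in the restricted set and 0.16 with the length score. The selenium-binding protein gene Selenbp2 differed by -1.28 ± 0.10 and -0.61.

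Growth factor receptors and signalling genes were lower over all libraries. Of 21 crypt base and WNT genes 19 were lower, of 18 BMP and TGF-beta genes 14, of 25 EGF family genes 19, of 24 insulin and mTOR genes 18 and of 29 chromatin modifiers 23. Their median transcripts were 4793, 4026, 3324, 6458 and 6654 bases. Over all libraries, in the restricted set and with the length score, the medians against all genes were -0.63, -0.23 and -0.14 for WNT and -0.62, -0.27 and -0.18 for BMP. For the EGF family they were -0.50, -0.14 and -0.06. For insulin and mTOR they were -0.53, -0.29 and -0.07, and for chromatin modifiers -0.46, -0.18 and 0.03.

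Erbb3, a receptor of the EGF family for neuregulins, ranged from 10.8 to 51.2 FPKM (median 32.2) in wild type and from 2.6 to 29.3 FPKM (median 4.1) in the knock out. Knock out libraries were mostly lower, though 5 of 18 fell within the wild type range, and the log2 difference was -2.09 ± 0.26 (adjusted p = 7.24e-09), or -0.55 (adjusted p = 0.349) in the restricted set. The 13 low knock out libraries had a median of 3.3 FPKM and the other 5 a median of 25. Insr, Foxo3, Crebbp and Kmt2c were likewise strong falls over all libraries. In the restricted set their differences were -0.57, -0.47, -0.47 and -0.29, and only Insr of these 4 passed there (adjusted p = 0.037, against 0.185, 0.228 and 0.439). With the length score Crebbp was at 0.01. Bmp2, a ligand made by surface epithelium, ranged from 4.11 to 12.2 FPKM (median 7.17) in wild type and from 1.35 to 4.24 FPKM (median 2.66) in the knock out. There was overlap, since 1 of 18 knock out libraries lay within the wild type range, giving a log2 difference of -1.34 ± 0.11 (adjusted p = 7.25e-13), or -1.18 (adjusted p = 0.00043) in the restricted set. Lgr5, the receptor that marks crypt stem cells, ranged from 0.82 to 3.24 FPKM (median 1.88) in wild type and from 0.201 to 1.09 FPKM (median 0.595) in the knock out. Values of the genotypes overlapped, 4 of 18 knock out libraries being inside the wild type range, and the mean log2 difference was -1.13 ± 0.11 (adjusted p = 2.76e-11), or -1.04 (adjusted p = 0.000207) in the restricted set. These 2, unlike Erbb3, passed in both sets.

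Genes of cell division were higher. Of 32 tested DNA replication genes, 23 were called higher and 2 lower, and of 31 mitosis genes 18 were higher and 2 lower. The medians over all libraries, in the restricted set and with the length score were 0.33, 0.33 and 0.33 for replication and 0.33, 0.20 and 0.48 for mitosis. Lig1, which joins Okazaki fragments, ranged from 5.24 to 13.2 FPKM (median 10.3) in wild type and from 10.7 to 23 FPKM (median 17.3) in the knock out. Its ranges overlapped, as 2 of 18 knock out libraries were within that of wild type, and the log2 difference was 0.81 ± 0.05 (adjusted p = 3.18e-15), or 0.43 (adjusted p = 0.00156) in the restricted set. On the FPKM as deposited Lig1 was at -0.05, where the median of all tested genes was -0.89. Birc5, which acts in mitosis and blocks cell death, rose by 1.03 ± 0.10 and 0.50, both passing. Only 1 gene of both lists was a strong call, so these rises were small. Of 28 p53 and apoptosis genes 16 were lower and 5 higher, near the share of all tested genes called lower, with a median of -0.13 against all genes. Trp53inp1, a p53 target, differed by -1.11 ± 0.11 and -1.08.

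Of 32 lysosome and autophagy genes 21 were lower and 9 higher, and of 20 hypoxia genes 15 were lower and 2 higher. Over all libraries and in the restricted set the medians against all genes were -0.09 and -0.03 for lysosome and -0.26 and -0.01 for hypoxia. Of 28 endoplasmic reticulum genes 20 were lower, but the median against all genes was -0.21 over all libraries and 0.24 in the restricted set, so its sign turned. Ctsl, the lysosomal protease cathepsin L, ranged from 31.6 to 59.7 FPKM (median 46.3) in wild type and from 10.9 to 35.8 FPKM (median 16) in the knock out. The groups overlapped, with 1 of 18 knock out libraries inside the wild type range, and the log2 difference was -1.38 ± 0.07 (adjusted p = 3.52e-18), or -0.75 (adjusted p = 9.98e-07) in the restricted set. The mitophagy receptor Bnip3 differed by -1.04 ± 0.09 and -0.96, both passing. Hif1a, the oxygen-sensitive transcription factor, differed by -1.27 ± 0.14 and -0.69, the latter not passing (adjusted p = 0.0712).

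Genes of serotonin and hormone handling, and genes that mark rare cell types, fell and rose. Slc6a4, the serotonin reuptake transporter, ranged from 2.67 to 7.57 FPKM (median 4.6) in wild type and from 0.87 to 1.85 FPKM (median 1.29) in the knock out. Every knock out library was below the whole wild type range, and the log2 difference was -1.5 ± 0.10 (adjusted p = 1.31e-15), or -1.33 (adjusted p = 5.7e-05) in the restricted set. Insl5, a peptide hormone of colonic endocrine cells, differed by -1.12 ± 0.17 and -1.4, both passing. The hormone gene Sct was a strong rise, by 1.04 ± 0.20 over all libraries. Of 16 tested serotonin and hormone genes 2 were called higher and 9 lower. Their median was -0.33 against the median of all tested genes, -0.50 in the restricted set and -0.29 with the length score in the fit. Of 6 tested enteroendocrine markers 1 was called higher and 4 lower. Mcpt1, a protease of mucosal mast cells, ranged from 0.074 to 0.599 FPKM (median 0.274) in wild type and from 0.397 to 12.5 FPKM (median 3.23) in the knock out. Of the 18 knock out libraries 1 lay inside the wild type range, so the groups overlapped, giving a log2 difference of 2.2 ± 0.30 (adjusted p = 3.17e-08), or 2.49 (adjusted p = 0.00177) in the restricted set. Mcpt2, another such protease, had 1.6 ± 0.28 and 2.05. Of 6 mast cell markers 3 passed the low-value filter, which a marker can do through a single group. The summed level of all 6 ran from 0.696 to 3.93 FPKM in wild type and from 1.52 to 20 in the knock out. Mcpt1 was -0.99 against MR knock out. Of 5 tested tuft cell markers 2 were called higher and none lower. Of these Trpm5, a taste transduction channel, differed by 0.25 ± 0.11 and 0.93. Alox5, a leukotriene enzyme, differed by 0.40 ± 0.11 and 1.16, and all of these values passed. On the FPKM as deposited Trpm5 and Alox5 were at -0.38 and -0.02, where the median of all tested genes was -0.89.

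Matrix genes were mostly too low to test, with 7 of 34 tested. Fn1, fibronectin, ranged from 0.0461 to 1.33 FPKM (median 0.122) in wild type and from 0.43 to 6.56 FPKM (median 1.09) in the knock out. Knock out libraries were mostly higher, though 11 of 18 fell within the wild type range, and the log2 difference was 1.48 ± 0.24 (adjusted p = 1.02e-06), or 2.75 (adjusted p = 0.000122) in the restricted set. Lama5, a laminin chain of the epithelial basement membrane, ranged from 0.876 to 1.82 FPKM (median 1.35) in wild type and from 0.159 to 0.419 FPKM (median 0.315) in the knock out. All 18 knock out libraries lay below every wild type library, giving a log2 difference of -1.2 ± 0.07 (adjusted p = 2.27e-16), or -1.18 (adjusted p = 6.53e-06) in the restricted set. Fibronectin thus rose and the laminin fell, both at low levels.

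**Figure D5:**
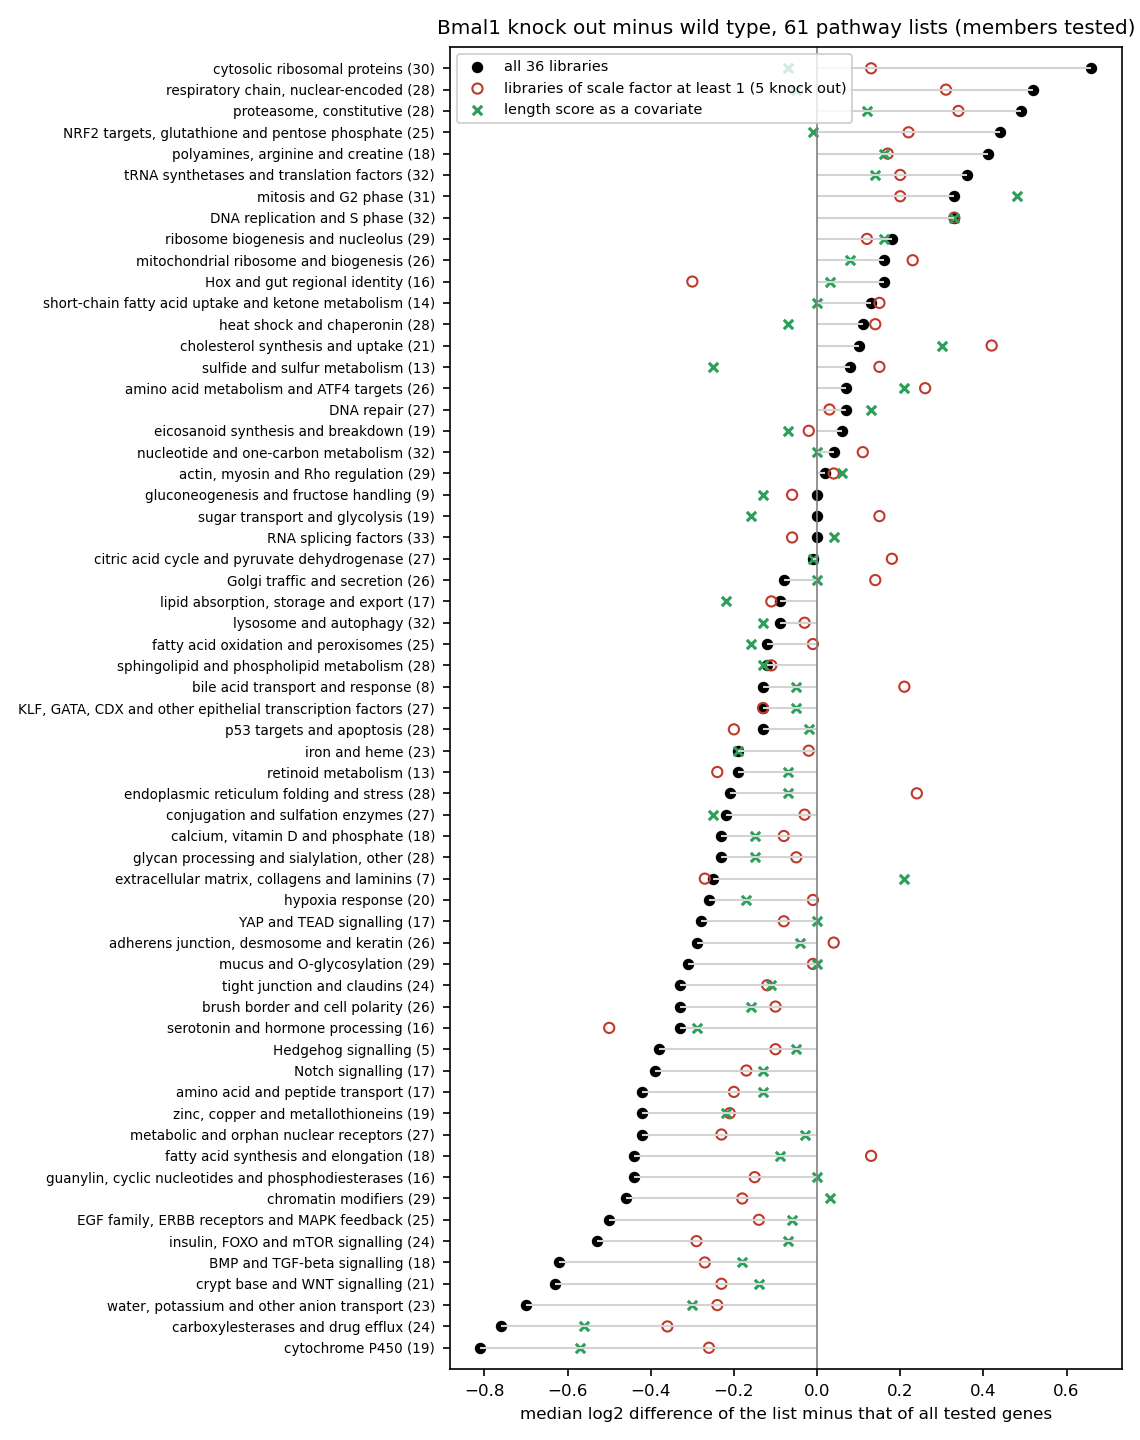
Median difference of each of the 61 pathway lists minus the median of all tested genes (log2, horizontal axis), over all 36 libraries, in the restricted set, and with the length score in the fit. Of the 27 lists at least 0.3 from all genes over all libraries, 5 stayed that far on the same side in each of the other fits.

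Across the 61 lists 19 medians were at least 0.3 below the median of all tested genes and 8 at least 0.3 above. In the restricted set, 5 of these 27 stayed that far on the same side, and with the length score 5 did. The 2 lists that did so in both were carboxylesterases with drug efflux, which were lower, and DNA replication, which was higher. On the FPKM as deposited 23 of the 27 stayed, and after quantile normalization 21.

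E-boxes of the form CACGTG, the sequence that BMAL1 and CLOCK bind, were searched on both strands in RefSeq promoters (GRCm38.p6, 250 bases before to 50 after the start). Since CACGTG is its own reverse complement, each site counts once. A match was present in 12.1% of 8555 tested genes that had a promoter, in 11.8% of 330 strong falls and in 6.12% of 245 strong rises. Among genes whose libraries did not overlap it was present in 8.96% of 67 falls and in 0 of 35 rises. The 6 windows of 60 bases that follow are from 6 of the largest strong falls with a match before the start, shown so that the site can be read in its context, with the E-box in capitals and each strand 5′ to 3′ as the gene runs.
Acvr1b, chr15:101173991-101174050, plus strand: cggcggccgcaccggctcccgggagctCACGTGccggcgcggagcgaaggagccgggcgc
Sorl1, chr9:42124298-42124357, minus strand: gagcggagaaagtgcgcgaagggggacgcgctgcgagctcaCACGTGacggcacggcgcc
Slc36a1, chr11:55204280-55204339, plus strand: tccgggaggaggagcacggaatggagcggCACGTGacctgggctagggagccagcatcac
Trpv3, chr11:73267426-73267485, plus strand: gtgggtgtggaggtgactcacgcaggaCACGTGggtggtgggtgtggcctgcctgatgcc
B3gnt7, chr1:86303160-86303219, plus strand: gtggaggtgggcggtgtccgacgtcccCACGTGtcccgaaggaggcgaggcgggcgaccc
Slc25a36, chr9:97111196-97111255, minus strand: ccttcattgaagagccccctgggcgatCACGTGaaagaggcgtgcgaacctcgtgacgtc
The genes encode an activin receptor, a sorting receptor, an amino acid carrier, a heat-gated channel, a glycan-extending enzyme and a mitochondrial carrier. Their differences were -1.98 ± 0.22 and -0.41 for Acvr1b, -1.91 ± 0.21 and -0.53 for Sorl1 and -1.76 ± 0.14 and -1.27 for Trpv3 over all libraries and in the restricted set. They were -1.82 ± 0.12 and -1.09 for Slc36a1, -1.56 ± 0.15 and -1.69 for B3gnt7 and -1.42 ± 0.16 and -1.18 for Slc25a36. In the restricted set Acvr1b and Sorl1 did not pass (adjusted p = 0.419 and 0.273) and the other 4 did. A match is a description of the sequence and not evidence of binding.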

How the data were processed

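The authors deposited 1 table of FPKM values per condition, each with 24883 rows. Per the submitters' processing notes, reads were aligned with TopHat2 2.1.1 to mm10 and quantified with Cufflinks 2.2.1. Per the labels' protocols, poly(A) RNA from TRIzol extracts was made into libraries with a stranded mRNA kit. The annotation, the normalization options and the sequencing depth were unknown from these sources, so no counting intervals are given. Genes that overlap, and near-identical copies, may share reads.

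Each library was divided by its median of ratios over 6966 genes across all 7 conditions. Values were analysed as log2(FPKM + 0.5) for 11377 rows with a mean of at least 1 in at least 1 condition. Under R 4.3.3, a linear model of limma 3.58.1 (robust eBayes with a mean-variance trend) covered the 54 libraries of 3 genotypes, with 1 mean per genotype and time and 36 residual degrees of freedom. The contrast averaged knock out minus wild type over 6 times. Tests were 2-sided, with Benjamini-Hochberg adjustment over all rows and a threshold of 0.05. The fit was tested on simulated data.

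Named genes are the 12 largest strong rises and falls, Arntl, and from each list up to 4 strong calls or, with none, the 2 called genes of smallest adjusted p. Predicted genes were left out of the rule. A few genes picked by it are not reported. The 6 chromosome 7 genes, Gm8979, Trim34a, Trim12c, Acvr1b, Sorl1, Trpv3 and Slc25a36 were chosen after their values were seen. The members and the 61 pathway and 20 marker lists were chosen with earlier results of these data known. GENCODE vM21, also on mm10, gave transcript lengths and positions. Alternatives were other pseudocounts, filters, scalings, weights, a replicate block, the length score as a covariate, and leaving out libraries or times. The 3 splits at a scale factor of 1 were chosen after seeing the data.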

Additional observations from a re-analysis of the deposited data

Results flagged for a closer look

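Lck, a T cell kinase, is flagged because the libraries of the 2 genotypes separated in opposite directions at different times. The difference between times was not tested, and each time has only 3 libraries per genotype. All 3 knock out libraries were above all 3 wild type libraries at ZT16 (0.71 on the log2 scale), and likewise at ZT12 and ZT20. At ZT4 all 3 were below (-0.30). At ZT4 all knock out libraries had scale factors of at least 1. At ZT12, ZT16 and ZT20 all were under 1, so time and library kind cannot be told apart here.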

How the results depend on the processing

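Counts and medians here are for all tested genes, with 9135 called and a median of -0.13 as reported. On the FPKM as deposited 389 were called higher and 9994 lower, 80 and 2571 were strong, 4 were separated higher, and the median was -0.89. With the length score 4073 were called, 2104 higher and 1969 lower, 109 and 93 were strong, and the median was 0.01. In the restricted set 2020 were called, 807 higher and 1213 lower, 149 and 133 were strong, and the median was -0.06; fewer libraries enter this fit. With knock out libraries under 1 alone 865 and 1313 were strong and the median was -0.18. Without wild type libraries under 1 122 and 224 were separated, with a median of -0.15. Array weights gave 689 strong falls and -0.16, pseudocount 0.1 gave 721 and -0.15, and pseudocount 1 gave 300 and -0.12. A filter at a mean of 5 left 3476 called lower and a median of -0.06, no filter gave -0.01 and quantile normalization -0.02. Without ZT4 609 and 767 were strong, 153 separated lower and the median -0.15; without ZT8 157 and 263 were separated (-0.14), and without ZT20 the median was -0.12. Without the knock out libraries under 0.6, 221 and 266 were strong and 91 separated higher. Leaving out a replicate number or a library gave 8340 to 9300 called, 3210 to 3607 higher, 5130 to 5719 lower, 253 to 391 strong higher, 290 to 548 strong lower, 54 to 110 separated higher, 91 to 207 separated lower and medians of -0.14 to -0.12. Of single libraries only wild type ZT8 replicate 3 moved a count by over 1.5 times, to 96 separated higher and 147 lower; leaving out replicate 3 at all times gave the 290 strong falls. The cause of these shifts was not tested.

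Genes whose sign turned on the FPKM as deposited were Ada (-0.08), Alox5 (-0.02), Cd68 (-0.09), Cidec (-0.44), Fabp6 (-0.17), Fkbp4 (-0.43), Gar1 (-0.18), Lck (-0.38), Lig1 (-0.05), Nop56 (-0.12), Pmvk (-0.08), Smtn (-0.48), Trpm5 (-0.38) and Xrcc1 (-0.40). In that fit the median of all tested genes was -0.89, and all of these genes lay above it. With the length score Cers6 (0.14), Cidec (-0.04), Crebbp (0.01), Ep300 (0.01), Ern1 (0.26), Fabp1 (-0.02), Fabp6 (-0.39), Irs2 (0.20), Kdm5d (0.11), Nrip1 (0.24), Ptch1 (0.03) and Slc10a2 (0.23) turned, and in the restricted set Cd68 (-0.16), Ern1 (0.03) and Lck (-0.30). Over 60 settings 89 of the 185 named genes kept their sign and call throughout, and 35 lists turned sign against all genes in at least 1 setting.

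With a replicate block 9137 genes were called. The numbers did not pair the samples: correlations of same-numbered libraries' deviations ran from -0.581 to 0.559.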

Other observations

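Several of the secreted defence genes that were high in the knock out also varied among the feeding groups, which ate low- or high-salt food by night or by day only. Retnlb had a median of 829 FPKM in low salt day fed libraries, against 231, 281 and 268 in low salt night fed, high salt day fed and high salt night fed, 117 in wild type and 2819.8 in the Bmal1 knock out. Ang4 had 519 in low salt day fed and 66.2, 63.6 and 92.4 in the other 3 in that order, with 41.3 in wild type and 1285 in the knock out. Isg15 medians were 81.4, 51.1 and 87.3 in low salt night fed, low salt day fed and high salt day fed, against 9.87 in high salt night fed and 7.6 in wild type. Hddc3 stayed between medians of 2.76 and 3.36 in the 4 feeding groups, with 57.1 in the knock out. Each group has 18 libraries. The feeding groups are male C57BL/6 mice aged 8 weeks, while the genotypes' strain and sex are not labelled. No comparison was tested here.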
